A study of Mus musculus with 12 samples.

Results

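The genes described are the subunits of the voltage-gated sodium and calcium channels, 40 of the 55450 genes in the count table. They were taken by symbol: the Scn genes with a number and the letter a or b, and the Cacna1, Cacna2d, Cacnb and Cacng genes. The set was chosen with earlier results of these data known. The set holds 14 sodium channel genes (10 α and 4 β subunits) and 26 calcium channel genes (10 α1, 4 α2δ, 4 β and 8 γ or TARP subunits). The animals were male mice of 7 to 9 weeks, either Vaultrc5+/+ (wild type) or Vaultrc5-/- (knockout); Vaultrc5 encodes a vault RNA, a short non-coding transcript. Total RNA of 2 tissues gave 12 libraries, 3 each from wild-type brain, knockout brain, wild-type liver and knockout liver. The titles call the wild-type libraries flx, a term that the labels do not explain, and the labels name no Cre driver, promoter or strain. They do not say whether each library came from its own animal, so p-values measure the spread between these libraries, which may be technical. The comparisons ask whether the level of each channel subunit differed with Vaultrc5 genotype in each tissue, and where each subunit was expressed.

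Voltage-gated sodium channels open when the membrane depolarises and carry the rising phase of the action potential. One large α subunit forms the pore, and small β subunits tune its gating and hold it at the cell surface. Voltage-gated calcium channels turn depolarisation into calcium entry for transmitter release, dendritic signalling, muscle contraction and gene regulation. Their α1 subunit forms the pore, α2δ and β subunits bring it to the membrane, and most γ genes in brain encode TARPs, which escort AMPA-type glutamate receptors to the synapse instead.

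The deposited expected counts summed to 14844971 to 18567381 per brain library and to 23247449 to 27155480 per liver library. Vaultrc5 itself was counted 33, 39 and 48 times in wild-type liver libraries, 4, 1 and 4 times in wild-type brain libraries, and 0 times in all 6 knockout libraries. Summed hepatocyte markers (4 genes) lay at 40920 to 68490 CPM in liver, where CPM are counts scaled by the TMM-adjusted library size, and at 0.409 to 2.96 in brain, and the sum of 4 neuronal markers at 3410 to 4491 CPM in brain and 19.4 to 26.2 in liver. Of that liver sum, Syt1 made up 18.9 to 25.6 CPM, while Snap25 had at most 3 counts in a liver library. The brain libraries stood apart from one another in markers of brain regions, irrespective of genotype. The sum of 5 cerebellar granule cell markers was 1609, 31.1 and 375 CPM in wild-type libraries 1 to 3 and 1511, 28.6 and 621 CPM in knockout libraries 1 to 3. The sum of 6 striatal markers was 151, 152 and 301 CPM in wild-type libraries, against 408, 367 and 120 CPM in knockout libraries. The sum of 4 hindbrain and spinal markers reached 166 CPM in wild-type library 3 and was at most 19.0 CPM in the others, and the 4 oligodendrocyte markers summed to 6067 CPM in that library and to 1721 to 3131 CPM in the others. Genotype differences of 8 brain genes are given below also without the libraries numbered 2 or 3. In whole tissue, fewer cells of a type and less RNA per cell cannot be told apart.

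Scn3a, Scn2a, Scn1a, Scn9a and Scn7a lie together on chromosome 2 (GRCm38): Scn3a (chr2:65457118-65567627, minus strand), Scn2a (chr2:65620771-65767447, plus), Scn1a (chr2:66270778-66440840, minus), Scn9a (chr2:66480080-66634962, minus) and Scn7a (chr2:66673425-66784914, minus). Of the 40 channel genes, 4 had counts that were not whole numbers, all of them in this cluster: Scn1a, Scn2a, Scn3a and Scn9a. Each was fractional in all 6 brain libraries, while the sum of the 4 was whole, within 0.05 counts, in each of those 6, so the fractions summed to whole reads there. In liver the counts of each gene were whole to begin with. Their coding sequences share long identical stretches: 7.54% of the 50-base windows of Scn1a, 11.3% of Scn2a, 13.2% of Scn3a and 8.89% of Scn9a occur unchanged in another α gene. In Scn8a, on chromosome 15, the share was 0.101% and the counts were whole. The longest identical run was 188 bases, between Scn1a and Scn2a. The read length was not given in the sources used here, so how many reads fell wholly within such runs was not tested. The split of reads among the 4 genes carries an uncertainty that the replicate error does not cover.

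All 40 channel genes had at least 1 count in brain, and 29 had over 100 counts in every brain library. Together they took 0.538% to 0.622% of the brain counts. Levels are compared between genes as RPKM, CPM divided by the exon length of the gene in kilobases. Among the sodium channel α subunits of wild-type brain, 3 genes made up nearly the whole pool. Scn2a, which encodes the channel of the early axon initial segment and unmyelinated axons, lay at 46.7 ± 7.12 RPKM (SD, n = 3) and took 39.1% of the summed α RPKM. Scn8a, whose channel dominates mature initial segments and nodes of Ranvier, lay at 37.0 ± 4.15 RPKM and took 31.0%. Scn1a, the channel of fast-spiking inhibitory neurons whose loss causes Dravet syndrome, lay at 28.7 ± 2.31 RPKM and took 24.2%. The libraries overlapped between Scn2a (38.7 to 52.2 RPKM) and Scn8a (33.6 to 41.6 RPKM), but Scn1a (26.5 to 31.1 RPKM) lay below both in all 3 libraries. Scn3a, a channel best known from the embryonic brain, lay at 5.20 ± 1.65 RPKM, 4.34% of the pool.

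The other α genes were at or under 1 RPKM in the wild-type mean. Scn7a, which encodes a sodium-sensing channel of glia and related cells that is not opened by voltage, lay at 0.994 ± 0.526 RPKM, and Scn9a, known from pain-sensing neurons, lay at 0.355 ± 0.262 RPKM. Scn10a and Scn11a, both channels of peripheral sensory neurons, had at most 6 and 4 counts in any brain library. Scn4a, the skeletal muscle channel, had 1 count in 1 brain library and 0 in the others.

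**Figure D1:**
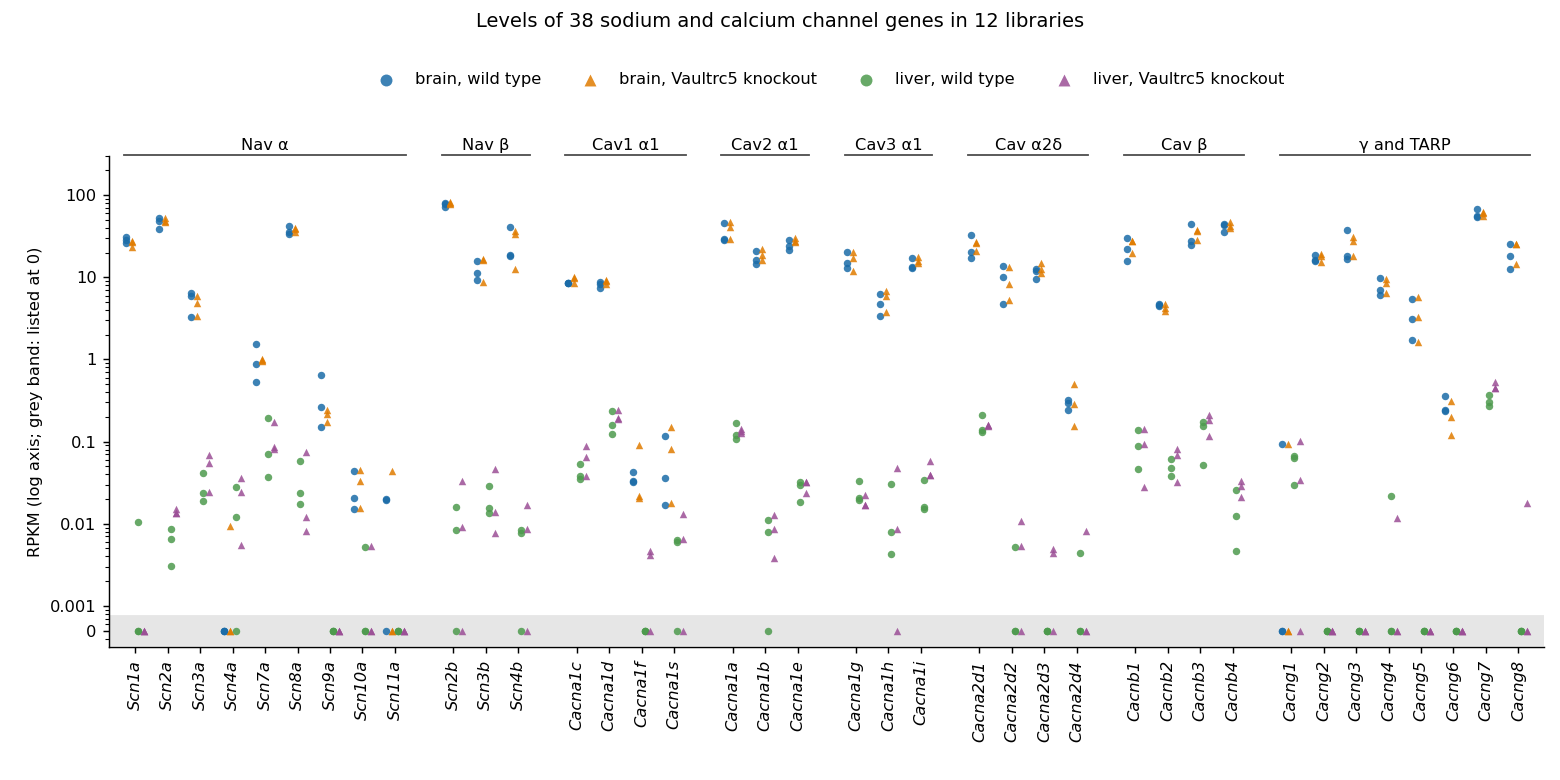
RPKM (log axis) of 38 channel genes, ordered by role, with 1 point per library: wild type as circles and knockout as triangles, in brain (blue, orange) and liver (green, purple). Points in the grey band are listed at 0. Scn2b lies at 76.2 ± 4.40 RPKM in wild-type brain, and the liver points lie below the brain points for all genes with over 100 counts in every brain library.

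Among the sodium channel β subunits, Scn2b, which is joined to the pore by a disulfide bond, lay at 76.2 ± 4.40 RPKM (SD, n = 3) in wild-type brain, with 78.0, 79.5 and 71.2 RPKM in the 3 libraries. Scn3b lay at 12.1 ± 3.29 RPKM. Scn4b, the subunit known for resurgent sodium current and strongly expressed in striatum, lay at 25.8 ± 12.8 RPKM and varied more between libraries than Scn2b and Scn3b.

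Of the 10 calcium channel α1 genes, 8 were tested in brain, and the neuronal Cav2 genes led the pool. Cacna1a, the P/Q-type channel of most fast synapses and of Purkinje cells, lay at 34.6 ± 9.98 RPKM and took 26.7% of the α1 pool. Cacna1e, the R-type channel, lay at 24.5 ± 3.41 RPKM, and Cacna1b, the N-type channel of presynaptic terminals, at 17.4 ± 3.30 RPKM. The Cav3 genes for the low-threshold T-type channels, known from thalamic and other burst-firing neurons, lay at 16.0 ± 3.82 (Cacna1g), 14.5 ± 2.29 (Cacna1i) and 4.79 ± 1.47 RPKM (Cacna1h). The L-type Cav1 genes expressed in brain were close to each other, with Cacna1c at 8.51 ± 0.122 and Cacna1d at 8.22 ± 0.764 RPKM, and their libraries overlapped. Cacna1f, the retinal L-type channel, and Cacna1s, that of skeletal muscle, had at most 14 and 16 counts in any brain library. The exon length used bears on the order of close neighbours: with the longest transcript in place of all exons, Cacna1b and Cacna1g changed places, as did Cacnb4 and Cacnb3. Under it 6 levels moved by over 1.5 times, to 13.7 RPKM for Cacna1c, 41.4 for Cacna1e, 39.4 for Cacna2d1, 26.8 for Cacna2d3, 0.468 for Cacna2d4 and 12.0 for Cacnb2.

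**Figure D2:**
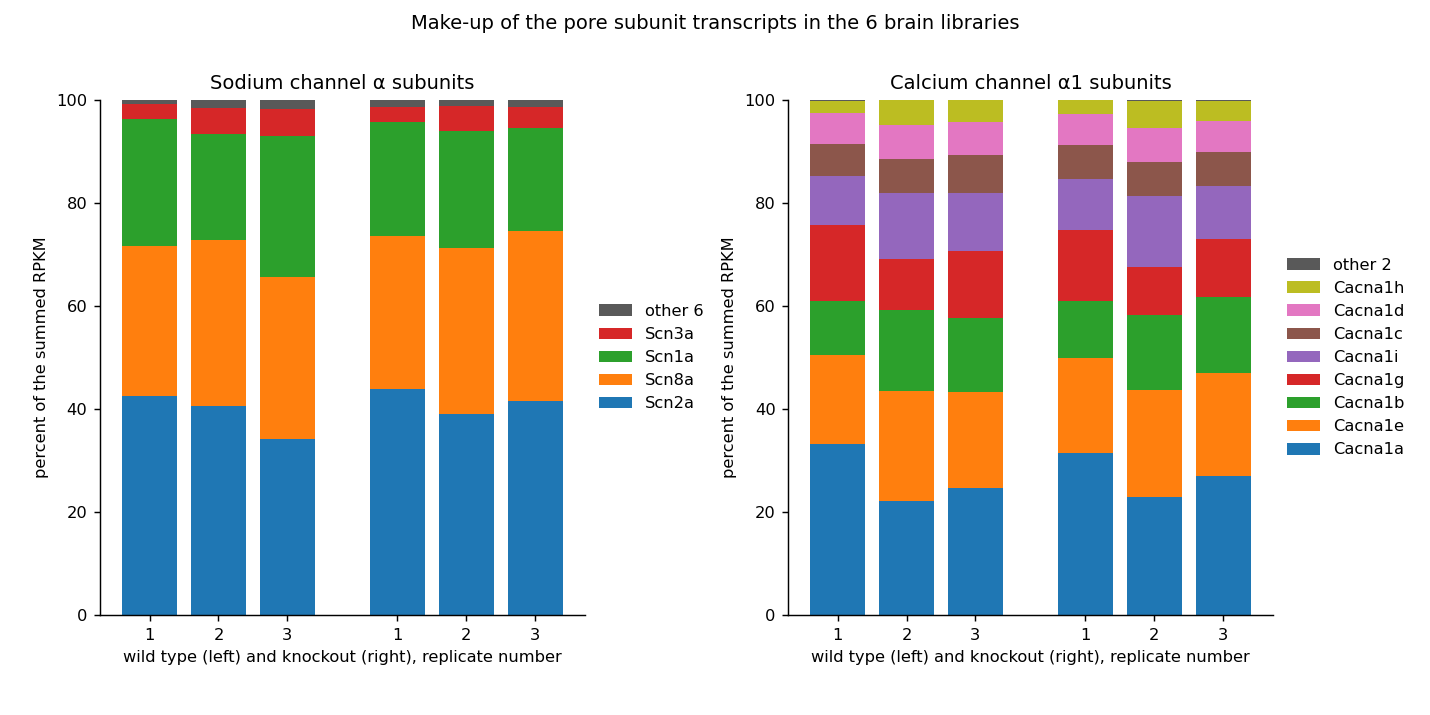
Stacked bars of each gene's percent of the summed RPKM, for the sodium channel α subunits (left) and the calcium channel α1 subunits (right), in each of the 6 brain libraries (3 wild-type bars, then 3 knockout bars). The 6 and 2 lowest genes are summed as other. Scn2a, Scn8a and Scn1a take 39.1%, 31.0% and 24.2% of the wild-type pool, against 41.5%, 31.6% and 21.7% of the knockout pool, and the Cacna1a share is highest in library 1 of each genotype.

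Of the α2δ genes, which encode extracellular subunits that raise channel number at the membrane, Cacna2d1 was highest at 23.6 ± 8.15 RPKM (SD, n = 3); it and Cacna2d2 encode the targets of gabapentin. Cacna2d3 lay at 11.4 ± 1.72 and Cacna2d2 at 9.44 ± 4.48 RPKM, with overlapping libraries. That closeness depends on the exon length used, since with the longest transcript their means were 26.8 and 12.9 RPKM. Cacna2d4, known from photoreceptors, lay at 0.287 ± 0.0388 RPKM. Of the cytoplasmic β genes, Cacnb4, whose loss causes the lethargic phenotype of the mouse, lay at 41.0 ± 4.78 RPKM, Cacnb3 at 32.5 ± 10.7, Cacnb1 at 22.7 ± 7.12 and Cacnb2 at 4.56 ± 0.135 RPKM. Only Cacnb2 had libraries below those of the other 3 β genes throughout.

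Among the γ genes, Cacng7 led with 59.0 ± 7.15 RPKM. Cacng2, which encodes stargazin, the TARP missing in the stargazer mouse, lay at 16.9 ± 1.78 RPKM. The other TARP genes were Cacng3 (24.2 ± 11.8 RPKM), Cacng8 (18.6 ± 6.33), Cacng4 (7.65 ± 1.95) and Cacng5 (3.42 ± 1.87). Cacng1, the γ subunit of the skeletal muscle calcium channel, had at most 2 counts in a brain library, and its close relative Cacng6 had 4 to 13. The TARP genes were thus present in every brain library, while the muscle-type γ gene was at or under the floor of 3 counts.

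Before the genotypes are compared, the spread among the brain libraries has to be given, since the libraries numbered 1 and 2 differed in the same way in both genotypes, in genes at large as in the channel genes. Of the 33 channel genes with enough counts to be tested in brain, 7 were higher in both libraries numbered 1 than in both numbered 2, and 15 were lower. Over the 18075 genes tested the shares were 32.9% and 33.3%, so the count is not a trait of the channel genes. The 2 libraries numbered 3 did not deviate together: Scn4b, for one, had 202 CPM in wild-type library 3, against 62.6 CPM in knockout library 3. The examples named here were chosen after their values were seen. Cacng5 had 20.8, 6.67 and 11.8 CPM in wild-type libraries 1 to 3 and 22.4, 6.33 and 12.7 CPM in knockout libraries 1 to 3. Cacna2d2 had 108, 37.4 and 79.5 CPM in wild-type libraries, against 105, 42.2 and 66.4 CPM in knockout libraries. Cacna1a had 526, 335 and 323 CPM in wild-type libraries, against 532, 335 and 466 CPM in knockout libraries. These 3 genes were highest in the libraries numbered 1, as the cerebellar granule markers were; library 1 exceeded library 2 by 3.12 times (wild type) and 3.53 times (knockout) for Cacng5 and by 1.57 and 1.59 times for Cacna1a. Cacna1g, another pore gene of cerebellar neurons, showed the same order, 1.57 and 1.69 times.

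The opposite order, low in both libraries numbered 1, was seen in the 15 genes counted above, from Cacnb2 to Cacng3 and Scn7a. Among them, Cacng3 had 45.9, 105 and 51.0 CPM in wild-type libraries, against 51.1, 86.7 and 77.5 CPM in knockout libraries, and Scn3a 41.5, 80.1 and 72.9 CPM and 42.4, 73.8 and 60.0 CPM. Within each genotype both were lowest in library 1. The sum of 4 cortical markers was 169, 383 and 191 CPM in wild-type libraries, against 192, 381 and 278 CPM in knockout libraries. Scn4b followed the striatal markers: 91.1, 92.0 and 202 CPM in wild-type libraries 1 to 3 and 181, 168 and 62.6 CPM in knockout libraries 1 to 3, so the high and low libraries were not those of either genotype. The part of brain region in these values was not tested.

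**Figure D3:**
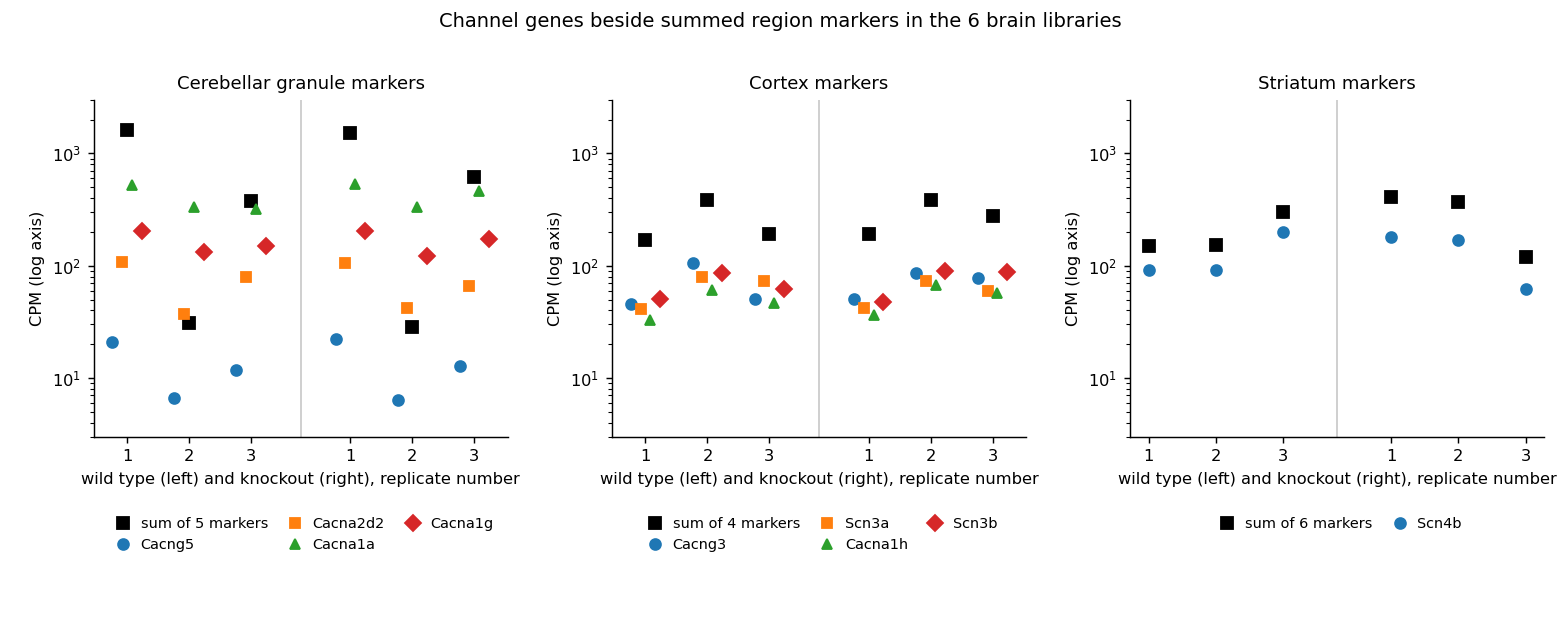
CPM (log axis) in the 6 brain libraries, wild type left and knockout right of the line, by replicate number. Black squares are the summed markers of cerebellar granule cells, cortex and striatum, and coloured points are channel genes. Cacng5, Cacna2d2, Cacna1a and Cacna1g are high in the libraries numbered 1, Cacng3, Scn3a, Cacna1h and Scn3b are low there, and Scn4b has its 3 highest values in wild-type library 3 and knockout libraries 1 and 2.

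In brain, no channel gene passed the test between Vaultrc5 knockout and wild type. Of 33 channel genes tested, 0 passed (edgeR quasi-likelihood test, Benjamini-Hochberg adjusted p under 0.05), where 0% of the 18075 genes tested passed. At an unadjusted p under 0.05, 0 of the 33 channel genes and 0.675% of all genes passed, and DESeq2 called 0 genes. In none of the 33 did the 3 knockout libraries lie wholly above or below the 3 wild-type libraries, which 4.23% of all genes did. Fitted log2 fold changes, knockout over wild type, were above 0 in 26 and below 0 in 7, with a median of 0.09, where 48.3% of all genes were above 0 and their median was −0.01. Without both brain libraries numbered 3 the split was 22 to 11 and the median 0.02, with 50.1% of all genes above 0. Without both numbered 2 it was 26 to 8 and 0.17, with 53.6% of all genes above 0.

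For the main sodium channel pores the genotypes overlapped. Scn2a had 626, 665 and 492 CPM in wild-type brain and 667, 607 and 623 CPM in knockout brain. Its log2 fold change was 0.09 ± 0.13 (SE; edgeR adjusted p = 1.00). Scn8a had 529, 656 and 565 CPM in wild-type libraries, against 558, 622 and 610 CPM in knockout libraries, a log2 fold change of 0.03 ± 0.12 (SE). In both genes the knockout libraries lay among the wild-type libraries, apart from 1 Scn2a library just above them. Scn1a had 318, 295 and 347 CPM in wild-type libraries, against 296, 309 and 263 CPM in knockout libraries, a log2 fold change of −0.15 ± 0.11 (SE; edgeR unadjusted p = 0.223). Its lowest library was a knockout and its highest a wild type, with the other 4 intermixed. Scn3a had a log2 fold change of −0.14 ± 0.29 (SE). The share of the α pool was 41.5% for Scn2a, 31.6% for Scn8a and 21.7% for Scn1a in the knockout, close to the wild-type shares given above.

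Scn9a had the largest fitted difference in brain, −0.75 ± 0.52 (SE; edgeR unadjusted p = 0.194, adjusted p = 1.00). Its CPM were 1.90, 3.42 and 8.30 in wild-type libraries, against 2.77, 3.08 and 2.22 in knockout libraries. The value rests on wild-type library 3, which also had the highest hindbrain and spinal marker sum. Without that library the log2 fold change was 0.01.

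Among the calcium channel pores, Cacna1e had the smallest p-value. Its CPM were 602, 710 and 540 in wild-type brain and 693, 673 and 769 in knockout brain, a log2 fold change of 0.21 ± 0.13 (SE; edgeR unadjusted p = 0.159, adjusted p = 1.00). Cacna1c had 179, 183 and 179 CPM in wild-type libraries, against 209, 178 and 213 CPM in knockout libraries, a log2 fold change of 0.15 ± 0.10 (SE; edgeR unadjusted p = 0.176). Of its 3 knockout libraries, 2 were above and 1 was below all the wild-type libraries. The log2 fold change was 0.17 ± 0.25 (SE) for Cacna1a, 0.15 ± 0.17 for Cacna1b and 0.11 ± 0.10 for Cacna1d. The calcium channel genes lay between −0.09 ± 0.09 (Cacnb2) and 0.21 ± 0.31 (Cacng8), each within 2 SE of 0. Of the sodium channel β subunits, Scn2b had 0.09 ± 0.09, Scn4b 0.10 ± 0.47 and Scn3b 0.18 ± 0.29 (SE), none past the test.

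The libraries that stood apart moved several of these values, although no adjusted p passed in any of these fits. For Scn4b, the log2 fold change of 0.10 ± 0.47 (SE) became 0.94 ± 0.12 without both libraries numbered 3 (edgeR unadjusted p = 0.00133, adjusted p = 1.00) and −0.24 ± 0.60 without both numbered 2. In libraries 1 and 2 the striatal marker sum was 151 and 152 CPM in the wild type, against 408 and 367 CPM in knockout libraries, so Scn4b and the striatal markers were high in the same libraries, and the part of the markers in the result was not tested. For Cacna1a, the fold change was 0.25 ± 0.26 without both numbered 2 and 0.01 ± 0.35 without both numbered 3, and it ran from 0.02 to 0.43 with one library left out, the highest without wild-type library 1. For Cacna1e it was 0.37 ± 0.14 (edgeR unadjusted p = 0.0357, adjusted p = 1.00) without both numbered 2 and 0.06 ± 0.16 without both numbered 3. The sodium channel pores moved too, Scn2a to 0.22 ± 0.16 and −0.01 ± 0.15, Scn1a to −0.23 ± 0.13 and −0.01 ± 0.14 and Scn8a to 0.11 ± 0.12 and 0.000624 ± 0.18, in the same order. So did Cacna1b, to 0.34 ± 0.18 and −0.01 ± 0.22, and Cacna1c, to 0.25 ± 0.11 and 0.10 ± 0.15.

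**Figure D4:**
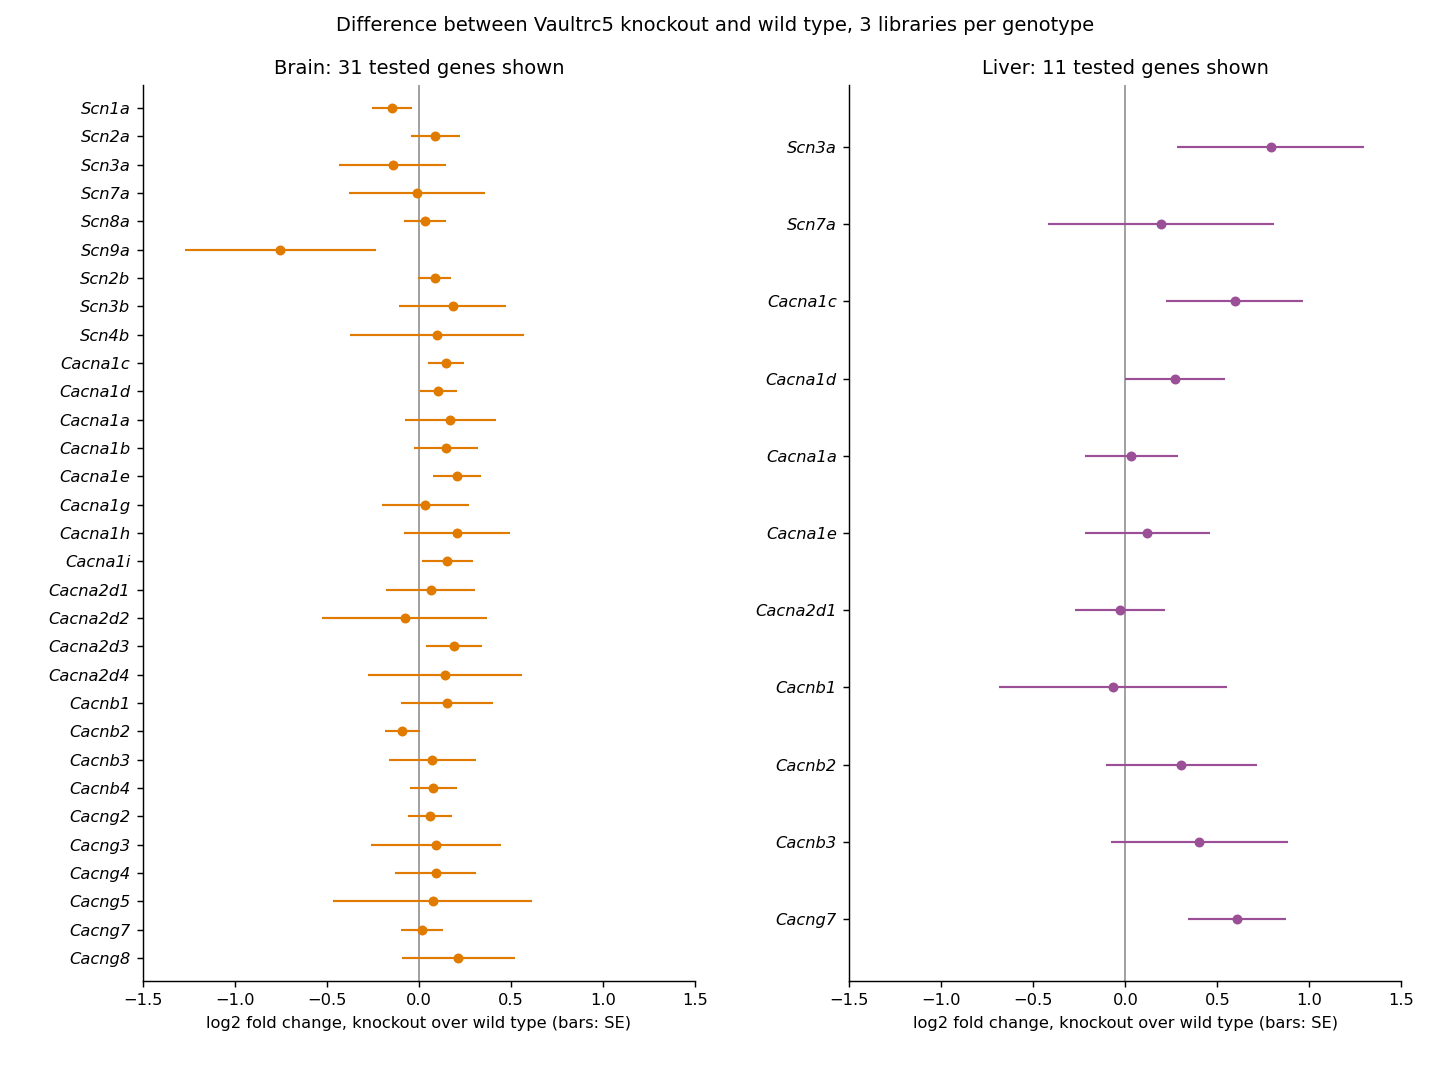
Log2 fold change of knockout over wild type (points) with its SE (bars) for the channel genes tested in brain (left, 31 genes shown) and liver (right, 11 genes shown). In brain the points lie between −0.75 (Scn9a) and 0.21 (Cacng8), and in liver the SE are wide, up to 0.62 for Cacnb1. No gene passed the adjusted threshold in either tissue.

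In liver the channel genes were close to the limit of detection. They took 0.0014% to 0.0017% of the counts, no gene reached 100 counts in any liver library, and 6 genes were at 0 in all 6: Scn9a, Scn11a, Cacng2, Cacng3, Cacng5 and Cacng6. At the depth of these libraries 3 counts, the level that a count of 0 allows, correspond to 0.111 to 0.128 CPM. These limits cover counting error only. A further 12 genes were at or under 3 counts in each liver library, 9 were so in some, and 13 were above 3 counts in all. Among those above were Scn3a, Scn7a, Cacna1c, Cacna1d, Cacna1a, Cacna1e, Cacna1g, Cacna1i, Cacna2d1, Cacnb2, Cacnb3 and Cacng7.

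Cacna1d had 2.94, 2.03 and 1.56 CPM in wild-type libraries, against 2.41, 2.38 and 3.06 CPM in knockout libraries. Its exons overlap those of Chdh, an abundant liver gene on the opposite strand with up to 6927 counts, over 589 bases, and whether the counting used strand was not given in the sources used here, so its liver level is uncertain. Cacna2d1 had 1.72, 1.62 and 2.61 CPM in wild-type libraries, against 1.95, 1.91 and 1.95 CPM in knockout libraries. In both genes the genotypes overlapped. Scn8a, the node channel, varied widely, with 9, 25 and 7 counts in wild-type libraries, against 5, 28 and 3 in knockout libraries. Scn7a had 34, 14 and 7 counts in wild-type libraries, against 33, 14 and 15.

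Between tissues, all 33 channel genes tested were higher in wild-type brain than in wild-type liver (edgeR adjusted p under 0.05), where 43.9% of the 18850 genes tested were higher in brain. Knockout brain against knockout liver gave 33 of 33, against 43.5% of 18785 genes. Only 12 channel genes passed the filter on low counts among the liver libraries. The others entered through the brain libraries, where they are high, so for them the filter favoured a difference. With every gene of at least 1 count tested, 35 of the 40 were higher in brain in the wild type, against 31.0% of 30742 genes, and 36 of 40 in the knockout, against 30.6%. The genes that did not pass there in either genotype were Scn4a, Scn10a, Scn11a and Cacng1. Scaling by library totals in place of TMM moved the all-gene median (log2, brain over liver) from 0.21 to 1.05 in the wild type, and the calls from 8275 higher in brain and 6542 higher in liver to 11635 and 3997. The median of the 33 channel genes moved with it, from 8.53 to 9.35, so a channel gene's difference is read relative to that shift.

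Among channel genes with at least 3 counts in a library of both tissues, Scn1a and Scn2a had the largest differences in the wild type. Scn2a had 31025 counts in the 3 wild-type brain libraries and 6 in the 3 wild-type liver libraries, a ratio of 4200 (95% counting interval 1929 to 11445) after TMM scaling of the 6 libraries, with a fitted log2 fold change of 11.96 ± 0.29 (SE; edgeR adjusted p = 6.73e-08). Scn1a had 16637 counts against 3, a ratio of 4504 (1541 to 21844). Its 3 liver counts all came from wild-type library 3. The fitted log2 fold change of 11.99 ± 0.42 (SE) ran from 11.39 to 15.32 with one library left out. The highest came without that library, where Scn1a was at 0 in the remaining wild-type liver libraries, so 15.32 is not a measured fold. In the knockout libraries the ratio was 1957 (1144 to 3676) for Scn2a, and Scn1a, at 0 in liver, was at least 1297-fold higher in brain. Cacna1b had 9040 against 5 counts in the wild type, a ratio of 1469 (629 to 4524), and Cacnb4, 19147 against 10, a ratio of 1555 (845 to 3244). The Cacnb4 exons overlap those of A430018G15Rik, a transcript of the opposite strand with up to 48 counts in a liver library, over 1433 bases or 16.0% of their length, so the few liver counts of Cacnb4 are uncertain in the same way as those of Cacna1d. Scn2b, the β subunit, had 18501 against 3 counts in the wild type, spread over 2 liver libraries, a ratio of 5009 (1714 to 24291), and 18164 against 5 in the knockout, a ratio of 3035 (1300 to 9348). In the wild type the ratio was 603 (445 to 841) for Scn8a, 504 (384 to 674) for Cacna1e, 379 (233 to 663) for Cacna1i and 360 (230 to 598) for Cacna1g. The counting intervals of these last 4 genes overlap at least in part, so their order is not fixed. In the knockout the ratio was 341 (179 to 746) for Scn3b.

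Single liver libraries moved several of these differences by over 1.5 times, all of them still past the test (edgeR adjusted p under 0.05). Without wild-type liver library 2 the fitted log2 fold change went from 9.23 to 9.92 for Scn8a, from 10.42 to 11.04 for Cacna1b and from 12.14 to 12.95 for Scn2b, and Scn1a reached its lowest value given above. Without wild-type liver library 3, that of Cacnb4 went from 10.56 to 11.25. In the knockout, Scn2b went from 11.48 to 12.97 without liver library 1, and Scn3b from 8.34 to 9.29 without liver library 2. Scn2a, Cacna1e, Cacna1i and Cacna1g moved less than 1.5 times in the wild type.

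Genes at 0 in all 3 liver libraries of a genotype are given as bounds, taken against 3 counts per library. In the wild type, Cacna2d3 was at least 467-fold higher in brain, Cacng2 at least 436-fold, Cacng3 at least 320-fold, Cacng8 at least 207-fold, Cacng5 at least 60.7-fold and Scn9a at least 21.3-fold. The Scn9a bound fell to at least 12.7-fold without wild-type brain library 3. The bounds thus include 4 of the TARP genes.

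Scn7a had the smallest tissue difference of the genes tested. It was 5.69-fold higher in wild-type brain (95% counting interval 4.28 to 7.69), with a fitted log2 fold change of 2.46 ± 0.63 (SE; edgeR adjusted p = 0.00741), and 4.72-fold higher in knockout brain (3.59 to 6.28). Without wild-type liver library 1 the fitted wild-type value was 3.32. Cacna1d was higher by 26.6-fold (22.8 to 31.3), Cacnb2 by 51.1-fold (38.6 to 68.9) and Cacna2d1 by 82.3-fold (70.1 to 97.1) in wild-type brain. Scn4a, the skeletal muscle channel, had more counts in liver than in brain, with 0 in wild-type brain against 7 in wild-type liver, and 1 in knockout brain against 11 in knockout liver, a knockout ratio of brain over liver of 0.0760 (0.00176 to 0.523). It was not among the genes that passed the test. These intervals cover counting error only and not the spread between libraries.

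In liver, no channel gene passed the test between genotypes. Of 12 channel genes tested, 0 passed (edgeR adjusted p under 0.05), where 0% of the 15329 genes tested passed. At an unadjusted p under 0.05, 0 of 12 and 3.50% of all genes passed. DESeq2 called 10 genes, 0.0652%, none of them a channel gene. Fitted log2 fold changes were above 0 in 10 of the 12 and below 0 in 2, with a median of 0.29. Over all genes 51.3% were above 0 and the median was 0.01. Markers of other liver cells differed between the same libraries. The sum of 3 endothelial markers was 50.6, 55.1 and 62.6 CPM in wild-type libraries, against 66.9, 74.2 and 63.0 CPM in knockout libraries, a narrow separation in which Pecam1 alone did not overlap, while Cdh5 and Cldn5 did. The sum of 3 Kupffer cell markers was 54.8, 73.9 and 64.0 CPM in wild-type libraries, against 78.3, 143 and 66.2 CPM in knockout libraries, overlapping but higher in the knockout of each same-numbered pair. The part of these cells in the channel values was not tested.

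Cacng7, a TARP gene, had the smallest p-value in liver and was the one gene of the 12 whose groups did not overlap, which 9.84% of all genes tested did (4.72% with the knockout higher). It had 16, 20 and 23 counts in wild-type libraries, against 34, 26 and 26 in knockout libraries, or 0.672, 0.737 and 0.895 CPM against 1.30, 1.11 and 1.10 CPM. The log2 fold change was 0.61 ± 0.27 (SE; edgeR unadjusted p = 0.0535, adjusted p = 0.992). Cacna1c, the L-type channel of smooth muscle and heart, had 0.798, 1.14 and 0.739 CPM in wild-type libraries, against 1.88, 1.36 and 0.807 CPM in knockout libraries, a log2 fold change of 0.59 ± 0.37 (SE; edgeR unadjusted p = 0.149). Its highest value was in knockout library 1, where the sum of 4 mural and smooth muscle markers was also highest, 84.7 CPM against 47.3 to 60.0 in the other liver libraries. Of these markers, Acta2 (16.0 CPM) and Myh11 (18.5 CPM) were highest there, while Rgs5 and Pdgfrb were highest in knockout library 2. The sum of 3 cholangiocyte markers was highest in knockout library 1 too, 8.58 CPM against 2.44 to 3.50. Without knockout library 1 the log2 fold change of Cacna1c was 0.27, and with any one library left out it ran from 0.27 to 0.85. The part of these cells in the value was not tested. The value for Cacng7 ran from 0.52 to 0.73 with one library left out.

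In liver, Scn3a had 7, 14 and 6 counts in wild-type libraries, against 8, 20 and 16 in knockout libraries, a log2 fold change of 0.79 ± 0.51 (SE; edgeR unadjusted p = 0.162). The genotypes overlapped, although the knockout was higher in each same-numbered pair, narrowly in pair 1. Cacna1c was also higher in each pair, narrowly in pair 3, whereas Cacna1d was lower in knockout library 1 and Cacna2d1 in knockout library 3. With one library left out, the Scn3a value ran from 0.48 (without knockout library 2) to 1.19 (without wild-type library 2). Cacna1a, the P/Q-type pore, was close to equal, 0.03 ± 0.25 (SE).

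The difference between the genotype effects in the 2 tissues was tested in 1 fit over the 12 libraries. Of 35 channel genes tested, 0 passed (edgeR adjusted p under 0.05), where 0% of the 20141 genes passed. At an unadjusted p under 0.05, 2 of the 35 passed, against 2.43% of all genes. DESeq2 called 1 gene, 0.00496%, and no channel gene. The 2 genes, named after their values were seen, were Cacng7, with a liver effect 0.57 ± 0.20 (SE) higher on the log2 scale than its brain effect (edgeR unadjusted p = 0.0183, adjusted p = 1.00), and Cacna1i, a T-type pore gene, with 0.92 ± 0.39 (SE; edgeR unadjusted p = 0.0370, adjusted p = 1.00). Cacna1i had 8, 4 and 4 counts in wild-type liver and 15, 9 and 9 in knockout liver, and in brain 132, 169 and 127 CPM in wild-type libraries, against 147, 175 and 154 CPM in knockout libraries. Cacng7 in brain had 164, 131 and 137 CPM in wild-type libraries, against 148, 137 and 153 CPM in knockout libraries, so the genotypes overlapped there.

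Other genes of the pathway were taken from a list of 38 genes. It holds 10 sodium channel partners at the axon initial segment and node, 15 calcium channel partners, the 4 genes of the sodium leak channel NALCN complex, 6 genes of endolysosomal (Tpcn) and sperm (Catsper) channels, and 3 epithelial sodium channel genes that are not voltage-gated. Of these, 31 were tested in brain and 15 in liver, and 0 passed between genotypes in either tissue (edgeR adjusted p under 0.05). The smallest p-value in brain was that of Nedd4l, a ubiquitin ligase that removes sodium channels, at 0.17 ± 0.11 (SE; edgeR unadjusted p = 0.165), and in liver that of Stac3, an adaptor of the muscle calcium channel, at −0.45 ± 0.28 (SE; edgeR unadjusted p = 0.147). In the test of the difference between tissues 0 of 32 passed, with 2 at an unadjusted p under 0.05, where 2.43% of all genes passed. They ran in opposite directions and rest on few liver counts. For Rem2, a small GTPase that inhibits calcium channels, the liver effect was 2.89 ± 0.98 higher than the brain effect (SE; edgeR unadjusted p = 0.0127), with 0, 1 and 0 counts in wild-type liver and 2, 5 and 3 in knockout liver. For Sptbn4, the spectrin of the initial segment, it was −3.36 ± 1.27 (SE; edgeR unadjusted p = 0.0398), with 1, 0 and 2 counts in wild-type liver and 0 in all 3 knockout liver libraries.

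Between wild-type tissues, 24 of the 31 pathway genes tested were higher in brain and 4 higher in liver, against 43.9% and 34.7% of all genes. As only 15 of the list passed the filter on low counts in liver, many entered this test through brain, where they are high. With every gene of at least 1 count tested, 24 of 37 were higher in brain and 3 in liver, against 31.0% and 22.3% of all genes. The 10 sodium channel partners and the 4 leak channel genes were each higher in brain. The scaffold gene Sptbn4 had a log2 fold change of 11.29 (edgeR adjusted p = 8.90e-08) on 3 liver counts, and Unc79, of the leak channel complex, 9.02 (edgeR adjusted p = 7.17e-08). The calcium channel partners were split, with 10 higher in brain and 2, Gem and Rem1, higher in liver. The 2 others higher in liver were Tpcn1, an endolysosomal channel, at −1.01 (edgeR adjusted p = 1.63e-04), and Scnn1a, an epithelial sodium channel subunit, at −4.40 (edgeR adjusted p = 3.82e-07). Of the 4 calls higher in liver, that of Scnn1a passed under both alternatives: Rem1 did not pass with every gene tested (edgeR adjusted p = 0.102), and scaling by library totals left 25 higher in brain and 1 higher in liver. In the knockout tissues the counts were 25 higher in brain and 2 higher in liver of 31, against 43.5% and 35.2% of all genes, and 25 and 2 of 36 with every gene of at least 1 count tested, against 30.6% and 22.7%. With library totals the knockout counts were 28 and 1 of 31.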

How the data were processed

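The libraries were made from TRIzol-extracted, DNase-treated RNA by a stranded total RNA kit with rRNA depletion and read from one end, per the labels' protocols. STAR, cutadapt and mm10 are named in the submitters' processing notes; the counting tool, its use of strand and the read length were not given in the sources used here. The deposited values are expected counts for each gene, rounded to whole numbers here. All 55450 IDs and symbols matched GENCODE release M21 (GRCm38), from which exon lengths and coordinates come. edgeR 4.0.16 (R 4.3.3) was used with TMM, filterByExpr (minimum count 10, minimum total 15), robust quasi-likelihood F-tests and Benjamini-Hochberg adjustment over all genes tested (threshold 0.05); each comparison used its own 6 libraries and the interaction all 12. SE is taken as |log2 fold change| over √F. CPM use TMM sizes within a tissue. The fits were also run on simulated data, with 1 dispersion for all genes, set below the fitted common dispersion of 0.0587 in brain and 0.0434 in liver. Between genotypes, a simulated log2 fold change of 0.585 was called in 11.76% and 15.15% of such genes in brain (2 sets). In liver it was called in 8.82% and 16.13%. Genotype differences of that size would thus mostly go uncalled.

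The channel genes and lists were chosen with earlier results of these data known. Pore genes and the 4 smallest p-values per tissue were named between genotypes, and up to 8 of the largest tissue differences with at least 3 counts in a library of both tissues. Replicate pairs differed by 27.2 to 228 times the chi-square degrees of freedom, so each library was counted. Same-numbered wild-type and knockout libraries deviated together in liver (r = 0.326, 0.359 and 0.397 over 13321 genes). These numbers, which come from the titles, were therefore taken to pair the samples there. The liver and interaction values given above nevertheless come from fits without this pairing, which was fitted only as an alternative. Alternatives tried were DESeq2 1.42.0, its size factors, library totals, other filters, robust estimation off, a joint fit of the 12 libraries, the replicate block, other exon lengths and each replicate left out. Results for some channel genes and a shared coding sequence are not reported here.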

Additional observations from a re-analysis of the deposited data

How the results depend on the processing

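Between genotypes, 0 channel genes passed the adjusted threshold under every alternative run in brain, in liver and for the difference between tissues. With the replicate number as a block, 0 channel genes passed in either tissue, and the block changed no call of a channel gene in any comparison. It did move the counts at an edgeR unadjusted p under 0.05. In brain these went from 0 to 2 of 33 channel genes and from 122 to 406 of 18075 genes. In liver 0 of 12 channel genes passed with or without the block, with a median log2 fold change of 0.30 and 0.29. All genes there went from 536 to 983 of 15329. For the difference between tissues the counts went from 2 to 3 of 35 and from 489 to 909 of 20141. In brain the same-numbered libraries correlated at 0.710, 0.679 and −0.03, so numbers 1 and 2 deviated together and number 3 did not; as not every pair exceeded 0.1, the numbers were not taken to pair the brain samples. Over all genes, liver calls were 10 with DESeq2, 4 with no filter beyond 1 count, 2 with the replicate block, and 0 to 1 with one library left out (1 without wild-type replicate 2); interaction calls were 1 with DESeq2 and 2 with the replicate block. With both brain libraries numbered 3 left out, an alternative chosen after seeing the data, Scn9a came to 0.14, Scn2a to −0.0135 and Cacna1b to −0.0146 on the log2 scale, reversed in sign; the cause was not tested. With one library left out, log2 fold changes ran from −1.12 to 0.0136 for Scn9a, −0.0306 to 0.18 for Scn2a, −0.38 to 0.0472 for Scn3a and −0.0318 to 0.13 for Scn8a. Low counts in liver limit every genotype value there.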
